A study of Sus scrofa with 15 samples.

Results

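The genes described here encode ribosomal proteins and the factors that start and extend the peptide chain in the mammary gland of sows around farrowing. Members were the genes that the study's own gene list pairs with a symbol starting with RPL, RPS, MRPL, MRPS, EIF or EEF and that reached 1 CPM (a count scaled to library size) in at least 3 of the 15 libraries. There were 37 of the 25322 genes listed in the count tables, and all 37 were among the 13503 genes tested. Of these, 10 encode proteins of the cytosolic ribosome, 13 encode proteins of the mitochondrial ribosome and 11 encode initiation or elongation factors or proteins that bind them. The other 3 match by the letters of their names only: RPS6KB1, RPS6KL1 and RPL7L1. The gene list was held in part, with 1998 of its rows, so the members are a part of each family, and 76 further family genes named by a reference table are given beside them.

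Mammary tissue was taken by biopsy from 3 sows at 14, 10, 6 and 2 d prepartum and at 1 d postpartum, which gave 3 libraries at each of the 5 time points. The animals were 2nd-parity crossbred sows (Danish Landrace × Yorkshire) chosen by the study for the highest colostrum yield, and each was fed a different combination of fiber and fat, which leaves sow and diet confounded: they cannot be told apart. By the dates in the Methods the diets began after the 14 d prepartum biopsies, every biopsy was taken under general anesthesia and followed by doses of Banamine (flunixin, an anti-inflammatory drug), and piglets, present at 1 d postpartum only, were removed before it. Time therefore cannot be told apart from diet, from earlier biopsies and dosing, or from suckling. Each library was compared as a sample of its time point, with 14 d prepartum as the baseline, and 1 d postpartum was also compared with 2 d prepartum. Comparisons are named by their days, so that +1vs-14 is 1 d postpartum against 14 d prepartum.

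Cytosolic ribosomes are built from a small subunit with RPS proteins and a large subunit with RPL proteins, and they translate the messages of nuclear genes, the milk proteins among them. Mitochondria keep ribosomes of their own, with MRPS and MRPL proteins, which translate the few messages encoded in mitochondrial DNA. Initiation factors (EIF) bring the messenger RNA and the initiator tRNA to the small subunit, and elongation factors (EEF) deliver aminoacyl-tRNA and move the ribosome along. Messages of cytosolic ribosomal proteins and of several translation factors are known to share a pyrimidine tract at their 5′ end, through which their translation is controlled together.

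The libraries held 10782343 to 19952918 counts on genes, with a median of 17726719. The 10 most abundant genes of a library took 16.6% to 19.5% of its counts at 14 d prepartum and 30.5% to 53.8% at 1 d postpartum, and the 1 d postpartum library numbered 37 stood apart with 53.8%. The scaling factor of the trimmed mean of M-values (TMM) was 0.545 in that library and 0.829 to 1.24 in the other 14. Levels below are TMM-normalized CPM unless said otherwise. The tissue was checked by its milk protein genes: CSN2 (beta-casein) was 5.67 ± 0.93 (SE) and LALBA (alpha-lactalbumin) was 10.89 ± 2.03 higher on the log2 scale at 1 d postpartum than at 14 d prepartum. Of the other epithelial markers EPCAM was called higher (0.81), while mean levels at 14 d prepartum and 1 d postpartum were 374 and 434 CPM for KRT8, 72.0 and 86.4 CPM for KRT18, 630.4 and 702 CPM for ELF5 and 3.95 and 4.97 CPM for SPDEF, none of them called. These 7 epithelial markers, the 2 milk protein genes among them, summed to 2576 to 4870 CPM at 14 d and 34952 to 101780 CPM at 2 d prepartum. At 1 d postpartum they summed to 287727, 24054 and 64969 CPM in the libraries numbered 37, 40 and 43, so the postpartum libraries differed widely. In bulk tissue, fewer cells of a type and less RNA per cell cannot be told apart.

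At 1 d postpartum the summed messages of the cytosolic members were lower than at any prepartum time point. In +1vs-14 the log2 fold changes of the mitochondrial members lay on both sides of 0, and 2 factors, EIF3E and EEF1B2, had the largest falls among the members. Calls here come from the quasi-likelihood test of edgeR and required an adjusted p (Benjamini-Hochberg, over all tested genes) of at most 0.05 both for any effect of time and for the comparison itself. Of the 10 cytosolic members, 8 were downregulated and 0 were upregulated in +1vs-14, beside 10.4% of all tested genes called lower and 13.3% called higher. Of the 13 mitochondrial members, 1 was upregulated and 0 were downregulated, and of the 11 factors 2 were downregulated. The median log2 fold change was -0.46 for the cytosolic class, 0.03 for the mitochondrial class and -0.31 for the factors, against 0.02 over all tested genes. The mitochondrial median turned to -0.098 without the 1 d postpartum library numbered 37, to -0.017 without the 14 d library numbered 7 and to -0.095 with RNA integrity as a covariate. All 3 postpartum libraries lay below all 3 of the 14 d libraries for 8 cytosolic members, against 19.4% of all tested genes, and above them for 4 mitochondrial members, against 19.5%.

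**Figure D1:**
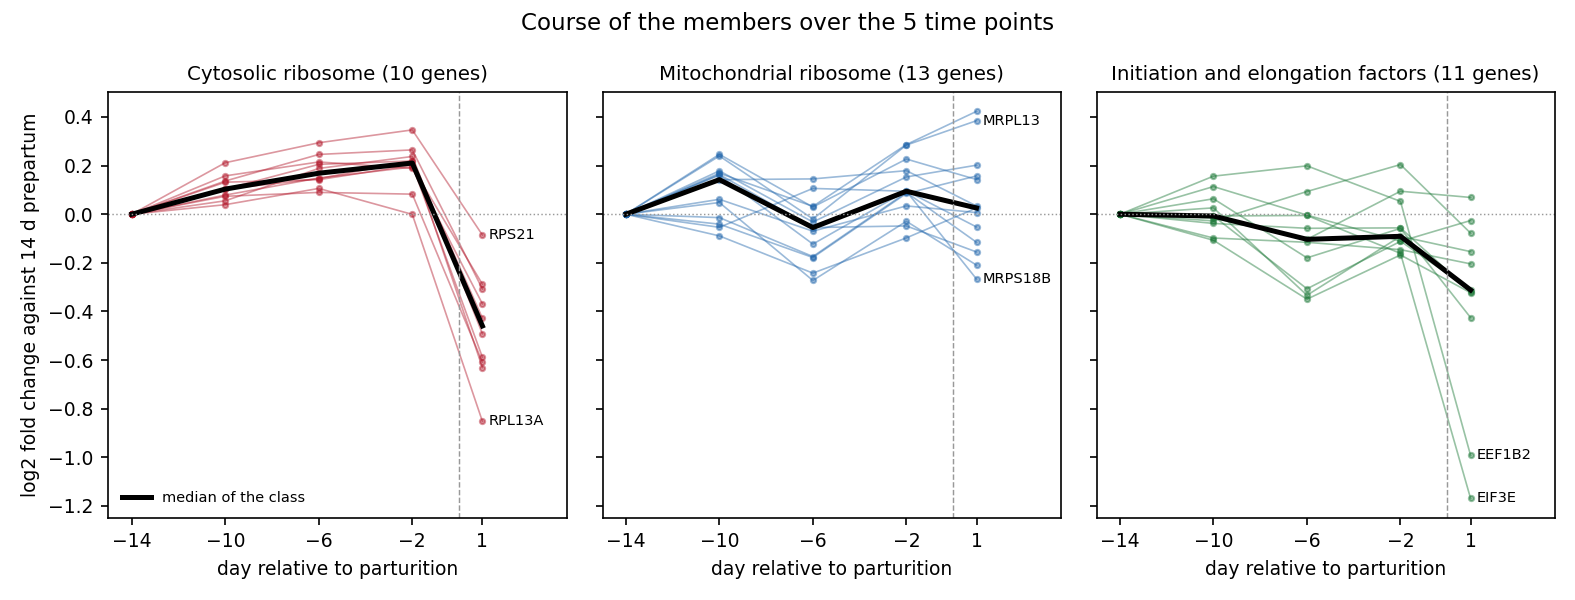
Log2 fold change of each member against 14 d prepartum (y axis) at each biopsy day (x axis, days from parturition, dashed line at parturition), with 1 thin line for each gene and a thick line for the class median. The cytosolic median lay at 0.10, 0.17 and 0.21 before parturition and at -0.46 after it, the mitochondrial median lay between -0.05 and 0.14 at every time point, and among the factors EIF3E and EEF1B2 lay lowest at 1 d postpartum.

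Before parturition no cytosolic member was called. The 10 members together took 12444 to 14898 CPM at 14 d prepartum, 14176 to 15299 at 10 d, 14833 to 15848 at 6 d and 15008 to 16026 at 2 d prepartum. Per kb of exon, their mean levels over all libraries ranged from 710.3 CPM for RPS10 to 2657 CPM for RPL5. All 10 lay above their 14 d level at 10 d and at 6 d prepartum and 9 did at 2 d prepartum, while 49.0%, 50.1% and 51.6% of all tested genes lay below it. Over all tested genes, 0%, 0% and 2.84% were called in these 3 comparisons. At an unadjusted p of 0.05 edgeR gave 0, 1 and 3 members, and DESeq2 called 0, 0 and 1. Counts at an unadjusted p and counts from DESeq2, here and below, are given without the share over all tested genes.

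The member nearest to a prepartum call was RPS21, a small-subunit protein. Its level was 425, 329 and 364 CPM at 14 d prepartum, with the libraries of a time point given in the order of their sows, and 468, 479 and 474 CPM at 2 d prepartum, so that the groups did not overlap. The log2 fold change in -2vs-14 was 0.35 ± 0.12 (SE) with an adjusted p of 0.113 in edgeR. All 3 libraries lay above all 3 of the 14 d libraries for 0 of the 10 members at 10 d prepartum, 5 at 6 d and 6 at 2 d, against 5.05%, 9.95% and 15.2% of all tested genes. These differences depend on the scaling: without TMM the median of the class was -0.19 in -2vs-14, while the median of all tested genes was -0.42, so that the class lay 0.23 above all genes in that fit and 0.22 above them with TMM.

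After parturition the summed level of the cytosolic members was 8956 to 10740 CPM, below all 12 prepartum libraries. Their share of all counts was 1.54% to 1.72% at 14 d prepartum, 1.24% to 1.61% at 2 d prepartum and 0.488% to 0.948% at 1 d postpartum. In the +1vs-2 time comparison all 10 members were downregulated, against 7.24% of all tested genes (8.01% were upregulated and 47.7% had a value below 0), with log2 fold changes from -0.43 for RPS21 to -0.85 for RPL13A and a median of -0.67. Every 1 d postpartum library lay below every 2 d prepartum library for all 10, against 13.7% of all tested genes.

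RPL13A is a large-subunit protein that is also known for its release from the ribosome to silence inflammatory messages. Its gene lies on chr6:50293762-50373937 (Sscrofa10.2, plus strand, 9 exons). It was measured at 1873, 1538 and 1589 CPM at 14 d prepartum, 1670, 1498 and 1829 CPM at 2 d prepartum and 864, 1060 and 845 CPM at 1 d postpartum. Every postpartum library lay below every prepartum library, and the level was 0.554 of that at 14 d prepartum (log2 fold change -0.85 ± 0.12 SE, adjusted p = 0.000217 in edgeR). It was lower in each of the 3 sows, by -1.12 to -0.54 on the log2 scale.

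RPS26, a small-subunit protein at the exit channel of the messenger RNA (chr5:22912634-22914580, minus strand, 3 exons), was at 892, 734 and 831 CPM at 14 d prepartum and at 512, 606 and 468 CPM at 1 d postpartum. The groups did not overlap, and the log2 fold change was -0.63 ± 0.12 (SE) with an adjusted p of 0.00143 in edgeR. Against 2 d prepartum, with 890, 968 and 1003 CPM, the difference was -0.85 ± 0.12. It was lower in 3 of 3 sows in both comparisons.

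RPL5, which carries the 5S ribosomal RNA into the large subunit (chr4:135982737-135990562, minus strand, 8 exons), had the highest level per kb of the class. It stood at 2897, 2454 and 2932 CPM at 14 d prepartum and at 1587, 2044 and 1801 CPM at 1 d postpartum, without overlap. The log2 fold change was -0.61 ± 0.12 (SE), with an adjusted p of 0.00143 in edgeR, and it was lower in 3 of 3 sows.

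RPL27, another large-subunit protein (chr12:19987053-19989521, plus strand, 6 exons), had the smallest SE of the class. It was at 566, 529 and 538 CPM at 14 d prepartum, 618, 627 and 634 CPM at 2 d prepartum and 377, 376 and 333 CPM at 1 d postpartum. The log2 fold change was -0.59 ± 0.09 (SE; adjusted p = 0.000321 in edgeR) in +1vs-14 and -0.79 ± 0.09 in +1vs-2, and the 3 sows differed by -0.69 to -0.49 in +1vs-14.

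**Figure D2:**
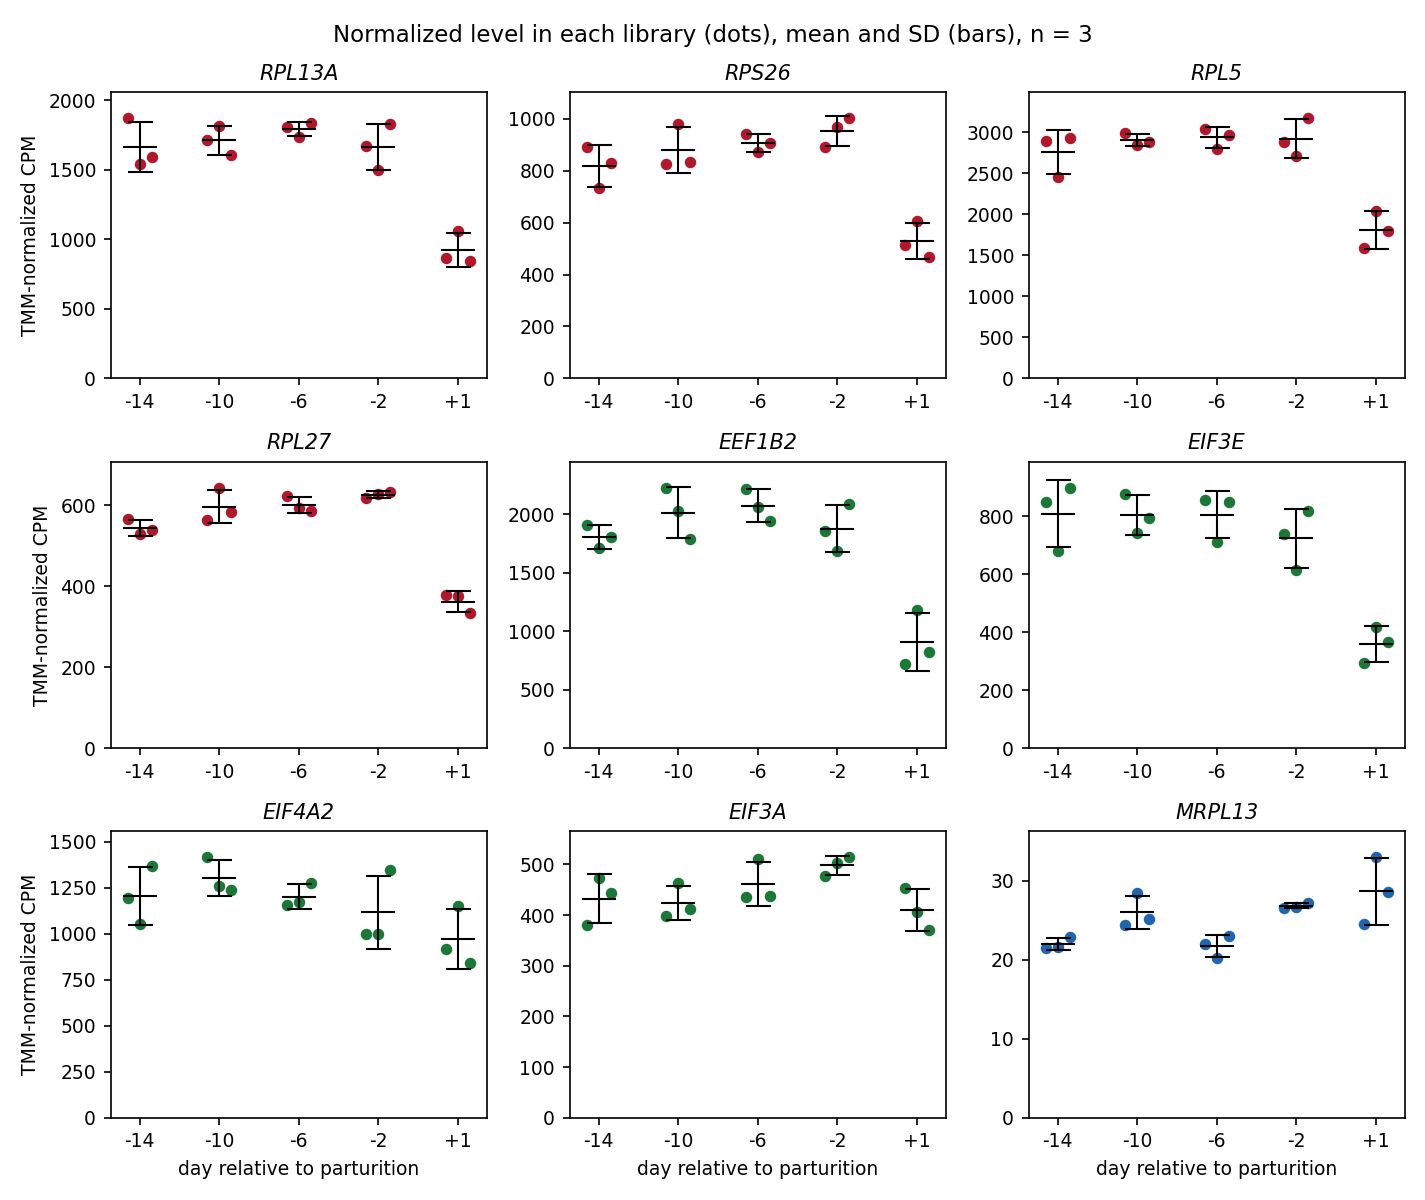
TMM-normalized CPM (y axis, from 0) of 9 members in each of the 3 libraries (dots, in the order of the sows) at each biopsy day (x axis), with the mean and SD as bars (n = 3). For RPL13A, RPS26, RPL5, RPL27, EEF1B2 and EIF3E all 3 libraries at 1 d postpartum lie below all 12 prepartum libraries, whereas EIF4A2, EIF3A and MRPL13 overlap with prepartum levels.

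The other called cytosolic members changed less. RPL4, the most abundant of the class in CPM and a protein that lines the exit tunnel of the large subunit, was -0.49 ± 0.11 in +1vs-14, and RPL8, a core protein near the peptidyl transferase center, was -0.43 ± 0.11. RPL30 was -0.37 ± 0.11 and RPS10 was -0.29 ± 0.10, with adjusted p-values of 0.0174 and 0.0326 in edgeR. RPL14 (-0.31 ± 0.12, adjusted p = 0.0569 in edgeR) was not called, but was called with the sow as a replicate block (adjusted p = 0.0485 in edgeR). DESeq2 and limma-voom, with and without the sow as a random effect, called it too. So did edgeR with the 10 highest genes of any library removed and without TMM. RPS21 differed least, at 368, 385 and 301 CPM after parturition, with a log2 fold change of -0.09 ± 0.12 and an adjusted p of 0.604 in edgeR in +1vs-14.

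The members with the largest and the smallest fold change in +1vs-14 were also compared within each library. The ratio of RPL13A to RPS21, in counts per kb, was 1.02, 1.08 and 1.01 at 14 d prepartum, 0.823, 0.721 and 0.889 at 2 d prepartum and 0.542, 0.636 and 0.647 at 1 d postpartum. The difference between 1 d postpartum and 14 d prepartum was -0.77 on the log2 scale, and the groups did not overlap. A two-sided exact permutation test of 3 libraries against 3 gave p = 0.1, the smallest it can give; with 5 ratios tested in each of 2 comparisons no adjusted value can be lower. This pair was chosen with the values known, as the ends of the range of fold changes in the same comparison. Its separation in +1vs-14 therefore restates those fold changes. The test, which took the libraries as independent, adds no support.

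**Figure D3:**
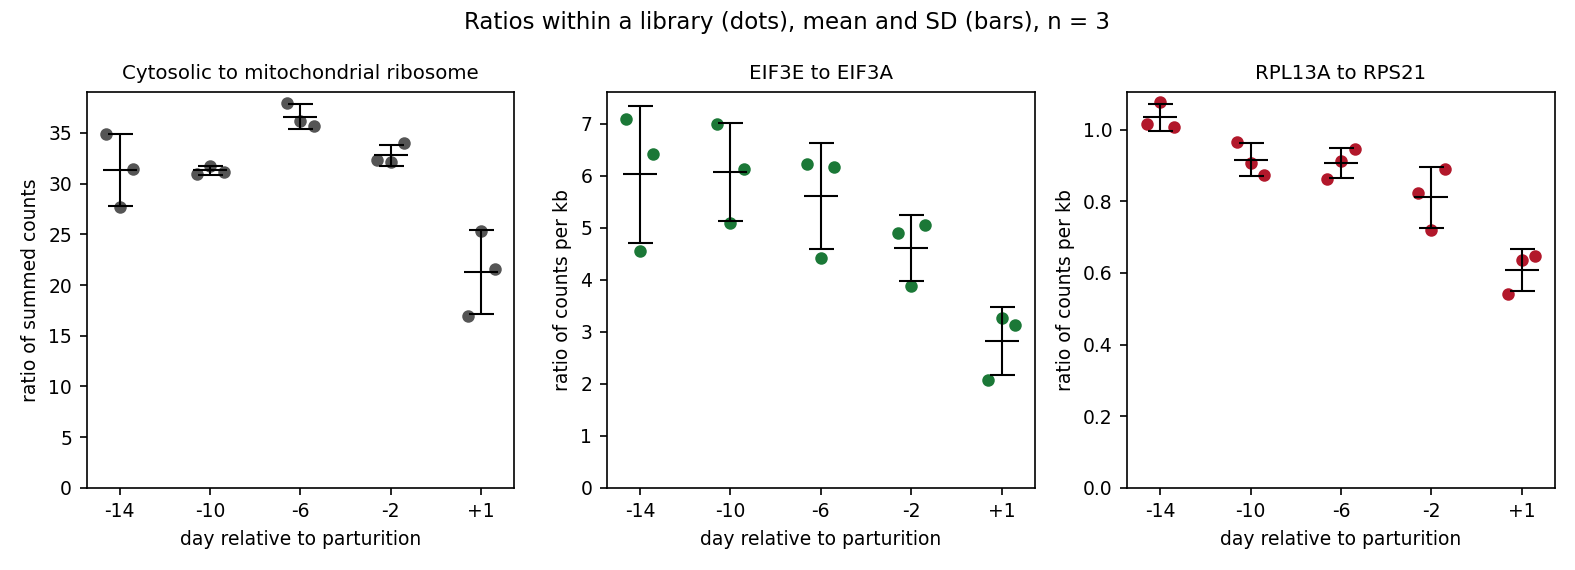
Ratios taken within a library, which no scaling between libraries can move (y axes, from 0), at each biopsy day (x axis), with dots for the 3 libraries and bars for the mean and SD (n = 3). The cytosolic to mitochondrial ratio of summed counts is 27.7 to 38.0 in the prepartum libraries and 17.0 to 25.3 at 1 d postpartum. The EIF3E to EIF3A and RPL13A to RPS21 ratios are also lowest at 1 d postpartum, and these gene pairs were chosen with the values known.

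RNA integrity, as listed by the study, moved with time: the 14 d prepartum libraries were at or below every other library, and the 1 d postpartum libraries were among the highest. With RNA integrity as a covariate, 0 of the 10 cytosolic members were called in +1vs-14, where edgeR then called 76 genes in all in place of 3203. The median of the class was -0.43 in that fit. In +1vs-2, whose groups overlapped in RNA integrity, 8 of the 10 remained called with a median of -0.67. The part of RNA integrity in the +1vs-14 differences was not tested beyond this. Fitted on the 6 libraries of a comparison alone, edgeR called 3 of the 10 in +1vs-14 and 2 in +1vs-2. The share of all tested genes called is not given here for these fits, nor for +1vs-2 with RNA integrity. Those counts are therefore not set against all tested genes.

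Among 18 further cytosolic ribosomal protein genes, named by the reference table and not by the study's list, 13 were downregulated and 0 were upregulated in +1vs-14 (10.4% of all tested genes were called lower), with a median of -0.44, and 14 were downregulated in +1vs-2 (7.24% over all tested genes), with a median of -0.66. Chosen after their values were seen, RPS13 (-0.82 ± 0.12) and RPS4X (-0.77 ± 0.11) lay lowest and RPS16 (-0.05 ± 0.15, adjusted p = 0.809 in edgeR) lay nearest to 0 in +1vs-14. All 18 log2 fold changes were below 0 after parturition in both comparisons, as were those of the 10 members.

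The mitochondrial ribosome lay at lower levels, and 1 of its members was called after parturition. Mean levels ranged from 11.9 CPM per kb for MRPS28 to 52.6 CPM per kb for MRPL24. The 13 members summed to 427.5 to 449.1 CPM at 14 d, 455.5 to 481.4 at 10 d, 410.0 to 429.6 at 6 d and 466.9 to 474.5 at 2 d prepartum. At 1 d postpartum they summed to 424 to 527.7 CPM. The postpartum libraries thus reached above and below those at 14 d and at 2 d prepartum, but not below those at 6 d. Log2 fold changes in +1vs-14 lay between -0.27 and 0.42, with 5 of 13 below 0, against 48.8% of all tested genes.

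MRPL13, a large-subunit protein (chr4:19634625-19696795, plus strand, 7 exons), was the called member. It was at 21.5, 21.6 and 22.9 CPM at 14 d prepartum, 26.6, 26.7 and 27.2 CPM at 2 d prepartum and 24.5, 32.9 and 28.5 CPM at 1 d postpartum. The postpartum libraries all lay above the 14 d libraries, with a log2 fold change of 0.38 ± 0.11 (SE) and an adjusted p of 0.0181 in edgeR, and the level was higher in 3 of 3 sows. The call was narrow, since the overall test of time had an adjusted p of 0.0422 and the call was lost on leaving out any library but the 1 d postpartum library numbered 37. It was also lost with RNA integrity as a covariate (0.54), on the 6 libraries of the comparison alone (0.37) and with no filter on low counts (0.36). Without TMM the value was -0.24, when the median of all tested genes was -0.64.

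MRPL24, also of the large subunit, was at 48.4, 46.6 and 42 CPM at 14 d prepartum and at 74.4, 55.7 and 54.2 CPM at 1 d postpartum. Its log2 fold change of 0.42 ± 0.15 had an adjusted p of 0.0415 in edgeR, but its overall test did not pass (adjusted p = 0.153). MRPS18B, of the small subunit, was at 32.8, 27.2 and 30.6 CPM at 14 d prepartum and at 27.7, 23.7 and 24.1 CPM at 1 d postpartum, a difference of -0.27 ± 0.10 with an adjusted p of 0.0627 in edgeR. With the sow as a replicate block both were called, at adjusted p-values of 0.00634 and 0.0356, which raised the called members from 1 to 3. In +1vs-2 edgeR called 0 mitochondrial members, or 1 with the block (MRPS18B, -0.36, adjusted p = 0.0137), and 1 had an unadjusted p under 0.05.

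Before parturition no mitochondrial member was called. Relative to 14 d prepartum, the class median was 0.14 at 10 d, -0.05 at 6 d and 0.09 at 2 d prepartum. Unadjusted p-values under 0.05 were given by edgeR for 1, 0 and 1 members, in both cases MRPL13, and DESeq2 called 0 in each.

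The counts of the cytosolic members, summed, were 34.8, 27.7 and 31.4 times those of the mitochondrial members at 14 d prepartum. This ratio, which no scaling between libraries can move, was 38.0, 36.2 and 35.6 at 6 d prepartum, 32.3, 32.1 and 34 at 2 d prepartum and 17.0, 25.3 and 21.6 at 1 d postpartum. The postpartum libraries lay below all 12 prepartum libraries, and the lowest was the library numbered 37.

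The 32 further mitochondrial ribosomal protein genes lay somewhat lower than the members, with 5 downregulated and 0 upregulated in +1vs-14, beside 10.4% of all tested genes called lower and 13.3% called higher, and a median of -0.21. Chosen after their values were seen, MRPS26 (-0.65 ± 0.14) and MRPL46 (-0.62 ± 0.17) lay lowest of those called. MRPL39, which the study used among its internal control genes for real-time PCR, differed from its 14 d prepartum level by -0.21 ± 0.14 at 2 d prepartum (adjusted p = 0.395 in edgeR) and by -0.39 ± 0.14 at 1 d postpartum (adjusted p = 0.0447), and was not called, as its overall test had an adjusted p of 0.154.

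**Figure D4:**
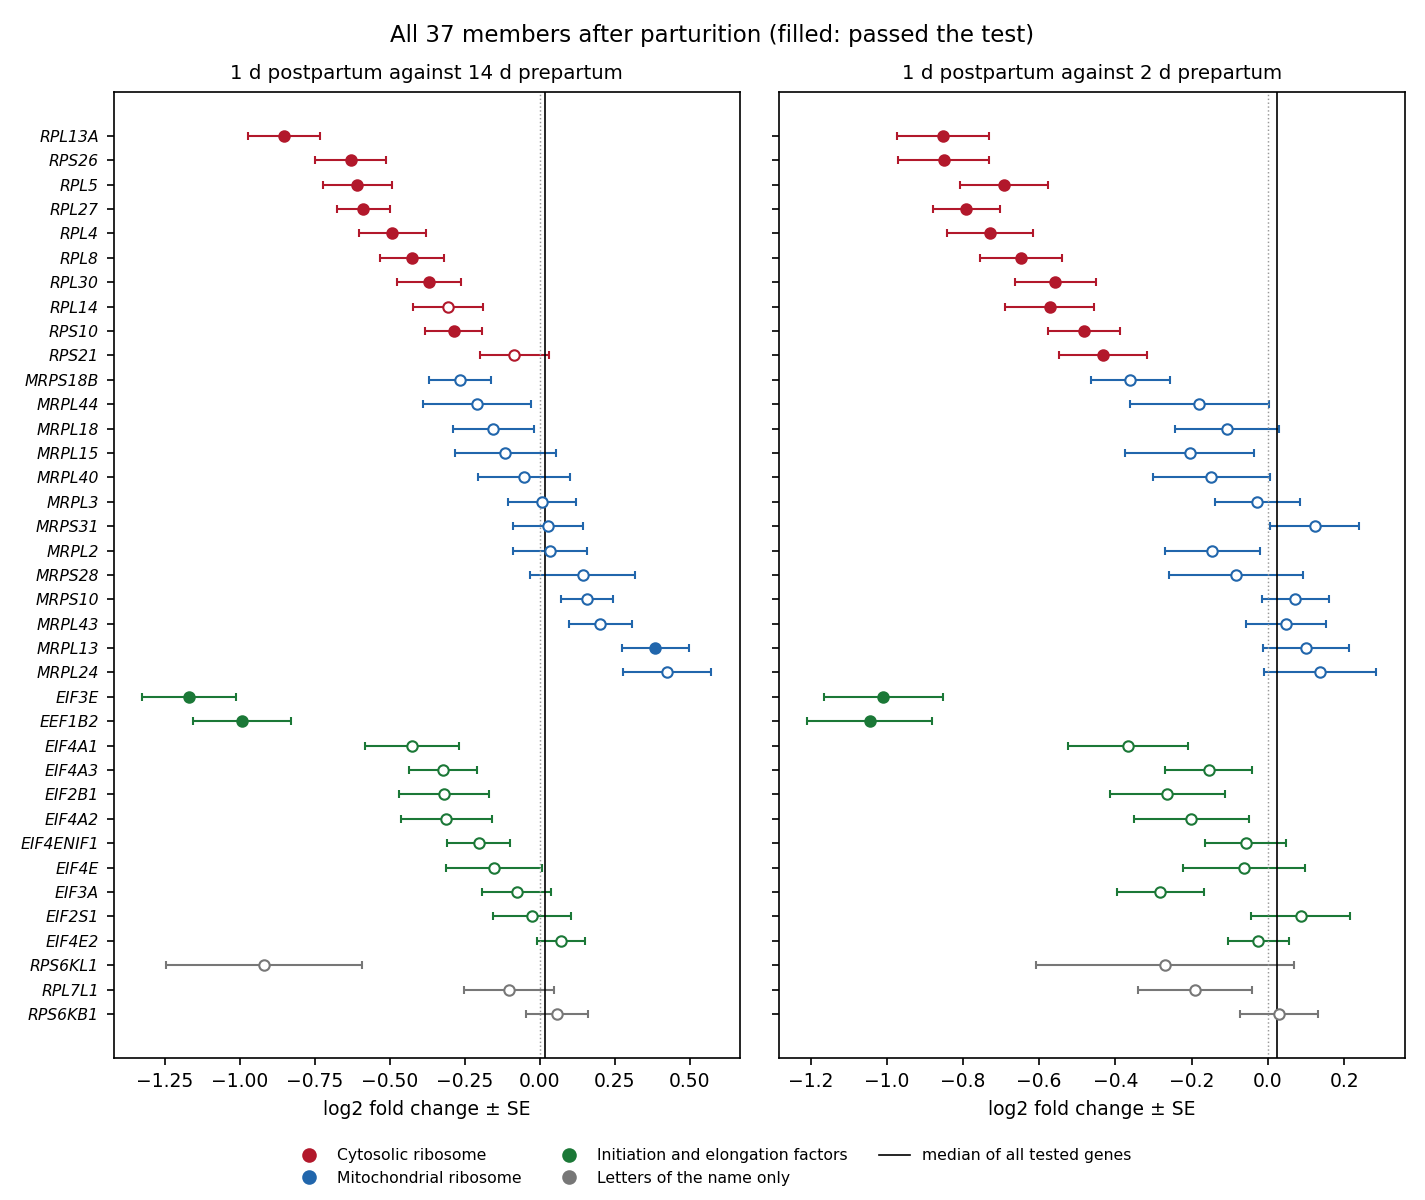
Log2 fold change ± SE (x axis) of all 37 members at 1 d postpartum against 14 d prepartum and against 2 d prepartum, with filled dots for called members and a black line at the median of all tested genes (0.02 in both panels). The cytosolic members lie left of the line in both panels, the mitochondrial members lie on both sides of it, and EIF3E and EEF1B2 lie farthest left.

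Among the translation factors the changes after parturition rested on EIF3E and EEF1B2. The 11 members summed to 4463 to 5019 CPM at 14 d prepartum, 4264 to 5240 CPM at 2 d prepartum and 2817 to 3555 CPM at 1 d postpartum. Their levels differed widely, from 13.9 CPM per kb for EIF4ENIF1 to 1592 CPM per kb for EEF1B2. None was called before parturition, where edgeR gave unadjusted p-values under 0.05 for 0, 2 and 0 members at 10, 6 and 2 d prepartum against 14 d and DESeq2 called 0 in each.

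EIF3E is a subunit of eIF3, the large complex that holds the small ribosomal subunit ready for the messenger RNA (chr4:31682243-31731809, plus strand, 13 exons). It was at 850, 679 and 899 CPM at 14 d prepartum, 739, 615 and 818 CPM at 2 d prepartum and 295, 418 and 366 CPM at 1 d postpartum. Every postpartum library lay below every prepartum library, and the level was 0.445 of that at 14 d prepartum (log2 fold change -1.17 ± 0.16 SE, adjusted p = 0.000151 in edgeR). In +1vs-2 the difference was -1.01 ± 0.16, and it was lower in 3 of 3 sows in both comparisons. With RNA integrity as a covariate it was -1.26 in +1vs-14 and was not called.

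EIF3A, the scaffold subunit of the same complex, was not called. It was at 380, 473 and 444 CPM at 14 d prepartum and at 453, 405 and 371 CPM at 1 d postpartum, a log2 fold change of -0.08 ± 0.11 with an adjusted p of 0.639 in edgeR. The ratio of EIF3E to EIF3A in counts per kb was 7.10, 4.55 and 6.43 at 14 d prepartum and 2.07, 3.27 and 3.13 at 1 d postpartum, a difference of -1.10 on the log2 scale without overlap (exact permutation test, two-sided, p = 0.1, the smallest that 3 against 3 can give). Over all 9 eIF3 subunits tested, 7 of them named only by the reference table, 7 were downregulated in +1vs-14 and 7 in +1vs-2, against 10.4% and 7.24% of all tested genes. EIF3D (-0.70 ± 0.17), EIF3L (-0.69 ± 0.11) and EIF3G (-0.68 ± 0.14) were among them, and EIF3J was 0.05 ± 0.17. The pair of EIF3E and EIF3A and this grouping by complex were chosen after the values were seen. The ratio of the pair therefore restates their fold changes. Its test, which took the libraries as independent, adds no support.

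EEF1B2 is a subunit of the exchange factor that recharges eEF1A, the carrier of aminoacyl-tRNA, with GTP (chr15:121000537-121004164, plus strand, 6 exons). It was at 1909, 1706 and 1803 CPM at 14 d prepartum, 1851, 1684 and 2085 CPM at 2 d prepartum and 718, 1184 and 821 CPM at 1 d postpartum. The postpartum libraries lay below all prepartum libraries, and the level was 0.503 of that at 14 d prepartum (log2 fold change -0.99 ± 0.16 SE, adjusted p = 0.00059 in edgeR). With RNA integrity as a covariate it was -1.30 and was not called. The reference table also names EEF1D, its partner in the exchange factor, and EEF2, the translocase. Both were called in +1vs-14, at -0.67 ± 0.14 and -0.74 ± 0.13. All 3 elongation factors found by name among the tested genes were downregulated in +1vs-14 and in +1vs-2, against 10.4% and 7.24% of all tested genes. Of 5 subunits tested of eIF2B, the exchange factor of eIF2, 1 was downregulated in +1vs-14 and 0 in +1vs-2. These genes, too, were chosen and grouped after their values were seen.

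The paralogues of eIF4A, the RNA helicase that opens the 5′ end of the message, were not called by edgeR. EIF4A2 was at 1193, 1051 and 1367 CPM at 14 d prepartum and at 915, 1153 and 841 CPM at 1 d postpartum, with a log2 fold change of -0.31 ± 0.15 and an adjusted p of 0.129 in edgeR. EIF4A1 was at 105, 126 and 101 CPM and then at 105, 67.6 and 75.7 CPM, a difference of -0.43 ± 0.16 with an adjusted p of 0.0511 in edgeR. EIF4A3, which serves the exon junction complex rather than initiation, was at 63.2, 68.8 and 71 CPM and then at 60.3, 48.2 and 54 CPM, without overlap (-0.32 ± 0.11, adjusted p = 0.0429 in edgeR, overall adjusted p = 0.111). DESeq2 (-0.33) and limma-voom with sow as a random effect (-0.34) called EIF4A3.

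EIF4A2 exceeded EIF4A1 in every library. Per kb the ratio was 8.59, 6.35 and 10.24 at 14 d prepartum and 6.62, 12.9 and 8.44 at 1 d postpartum, so the groups overlapped (difference 0.12 on the log2 scale, two-sided exact permutation p = 0.8).

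The cap-binding proteins EIF4E and EIF4E2 (the latter is known as a repressor that binds the cap without starting translation) were not called either. EIF4E was at 70.6, 91.5 and 82.5 CPM at 14 d prepartum and at 97.7, 62 and 61 CPM at 1 d postpartum, with 1 library above and 2 below the whole range at 14 d (-0.15 ± 0.16, adjusted p = 0.492 in edgeR). EIF4E2 was at 42.2, 43.4 and 39.7 CPM and then at 44.6, 44.2 and 42.7 CPM (0.07 ± 0.08, adjusted p = 0.541 in edgeR). Their ratio per kb was 0.361 to 0.454 and then 0.302 to 0.472 (two-sided exact permutation p = 0.4).

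EIF4E, EIF4A1 and EIF4A3 were called once the 1 d postpartum library numbered 37 was left out, at -0.42, -0.64 and -0.42, which raised the called factors from 2 to 5 in +1vs-14 and from 2 to 4 in +1vs-2. The remaining factors were EIF2S1, the alpha subunit of eIF2 that stress kinases phosphorylate (-0.03 ± 0.13), EIF2B1, of the exchange factor of eIF2 (-0.32 ± 0.15), and EIF4ENIF1, the transporter of eIF4E into the nucleus (-0.20 ± 0.11), and none was called.

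Of 26 further initiation and elongation factor genes named by the reference table, 10 were downregulated and 1 was upregulated in +1vs-14, where 10.4% of all tested genes were called lower and 13.3% higher, with a median of -0.14. The upregulated gene was EIF4G2, a scaffold known for cap-independent initiation, at 0.67 ± 0.15 (adjusted p = 0.00391 in edgeR), whereas EIF2B3, of the eIF2 exchange factor, was -0.65 ± 0.18. Both were chosen after their values were seen.

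The 3 genes that match by letters only were not called. RPS6KB1, the kinase S6K1 that phosphorylates ribosomal protein S6 under mTORC1, was 0.06 ± 0.10 in +1vs-14 and lay between 73.9 and 105 CPM in the 15 libraries. RPL7L1, a paralogue of RPL7, was -0.10 ± 0.15. RPS6KL1, a kinase-like gene at 0.681 to 3.35 CPM, was -0.92 ± 0.33 with an adjusted p of 0.0439 in edgeR, but its overall test did not pass (adjusted p = 0.216), and its counts per library lay between 4 and 80.

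The other genes of protein synthesis were taken from lists, which were drawn up with earlier results of these data known. Of 9 genes tested for targeting and passing nascent chains into the endoplasmic reticulum, the route of secreted milk proteins, 9 were upregulated in +1vs-14, against 13.3% of all tested genes, with a median of 1.06. The largest were SEC61A1, the channel of the translocon (1.66 ± 0.23), SSR1, of the translocon-associated complex (1.53 ± 0.31), and TRAM1 (1.28 ± 0.26). In -2vs-14, where 1.95% of all tested genes were called higher and 0.896% lower, 2 of them were called, SPCS1 of the signal peptidase (0.94) and SSR2 (0.59), or 4 with the sow as a replicate block. Without TMM 4 of the 9 were called higher in +1vs-14 and the median was 0.33, which lay 0.96 above that of all tested genes.

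Of 24 genes tested for control of translation, 9 were upregulated and 1 was downregulated in +1vs-14, beside 13.3% and 10.4% of all tested genes, with a median of 0.39, which became -0.28 without TMM (0.35 above all tested genes in that fit). DNAJC3, an inhibitor of eIF2 alpha kinases, was 1.85 ± 0.24, EEF2K, the kinase that inhibits eEF2, was 1.34 ± 0.23, and EIF2AK3 (PERK), the eIF2 alpha kinase of the endoplasmic reticulum, was 1.20 ± 0.18. The downregulated gene was DENR (-0.69 ± 0.09), which helps to recycle the small subunit. In -2vs-14, 1 was called, or 4 with the sow as a replicate block.

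Of 34 genes tested for ribosome assembly, 6 were downregulated and 2 were upregulated in +1vs-14, beside 10.4% and 13.3% of all tested genes, with a median of -0.24. WDR3 (-0.90 ± 0.12), NPM1, the nucleolar chaperone nucleophosmin (-0.87 ± 0.11), and RBM34 (-0.82 ± 0.11) had the largest falls, and NOP9 (1.14 ± 0.31) and BYSL (1.09 ± 0.11), both factors of small-subunit assembly, rose. WDR3 was also the called gene of -2vs-14, at -0.49.

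Of 19 genes tested for charging and processing of tRNA, 3 were downregulated (RPP30 at -0.51, AIMP1 at -0.47 and SSB at -0.35) and 0 were upregulated, again beside 10.4% and 13.3% of all tested genes, with a median of -0.21. Of 14 other genes tested for mitochondrial translation, 2 were downregulated, TUFM, the mitochondrial elongation factor Tu (-0.78 ± 0.15), and OXA1L, which inserts new proteins into the inner membrane (-0.40 ± 0.11), with a median of -0.17, against the same shares. With RNA integrity as a covariate no gene of these 5 lists was called in +1vs-14, where 76 of all tested genes were.

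**Figure D5:**
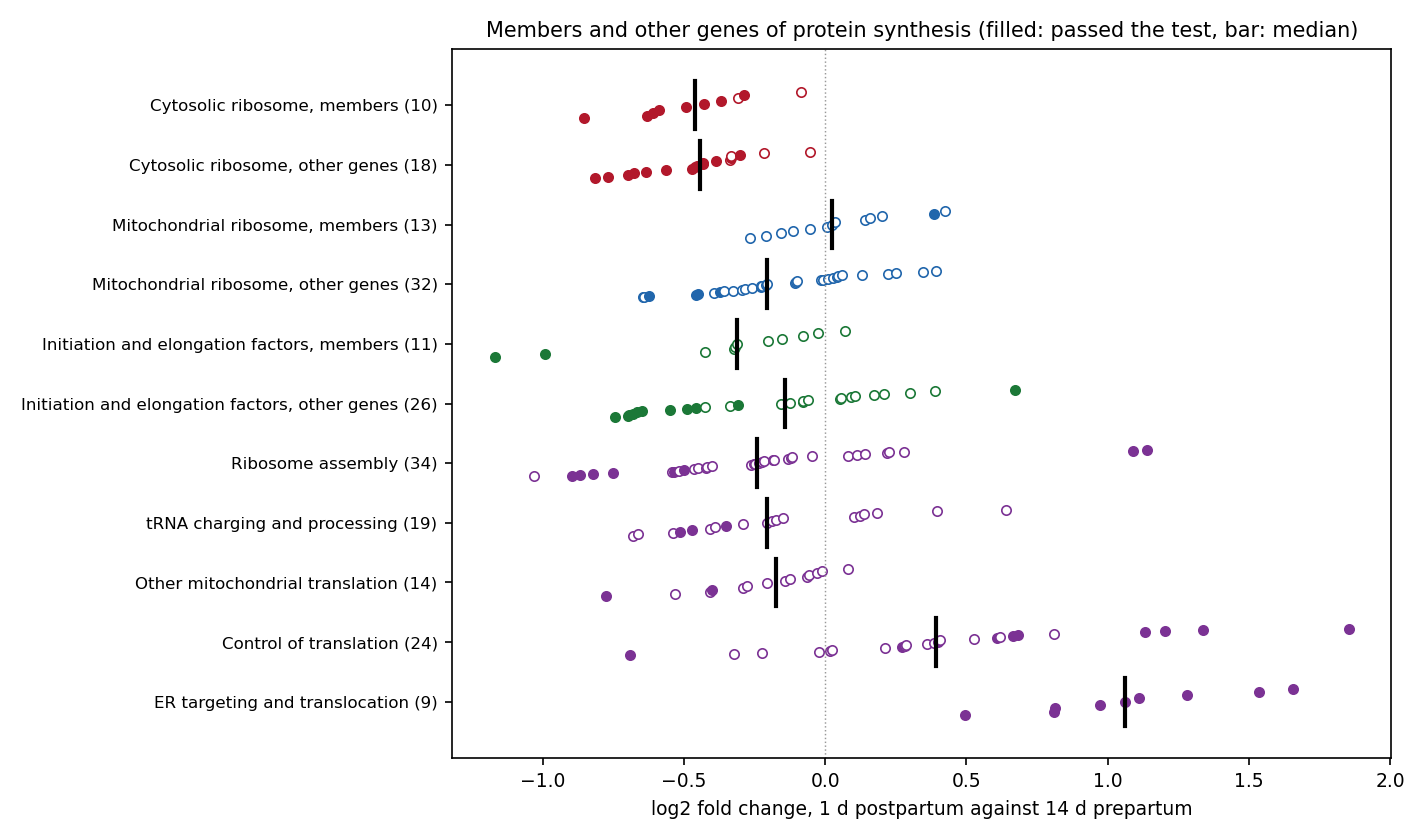
Log2 fold change at 1 d postpartum against 14 d prepartum (x axis) of the members by class, of the further family genes and of 5 lists of other genes of protein synthesis (rows, number of genes in parentheses), with filled dots for called genes and bars for the median. The cytosolic members and the further cytosolic genes have medians of -0.46 and -0.44, ribosome assembly has -0.24, and the genes for targeting to the endoplasmic reticulum have 1.06.

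Markers of other cell types moved between the same time points. Summed levels at 14 d prepartum and 1 d postpartum were 3699 to 6879 and 1889 to 3673 CPM for 8 stromal markers, 269 to 306 and 209 to 257 CPM for 9 immune markers, 455 to 505 and 391 to 470 CPM for 7 endothelial markers, and 35.3 to 47.2 and 91.9 to 167 CPM for 4 adipocyte markers. Of these, 3 immune markers (NCF4, CD72, PTPRC), 1 stromal (LUM), 1 endothelial (CD93) and 1 adipocyte marker (PLIN1) were called lower in +1vs-14. DDR2, CIDEA and PNPLA2 were called higher. Of all tested genes, 10.4% were called lower and 13.3% higher. Between 2 d prepartum and 1 d postpartum, where the cytosolic members differed most, the stromal sum was 3395 to 3829 and then 1889 to 3673 CPM. The other sums did not overlap between these time points. The immune sum was 272 to 296 and then 209 to 257 CPM, and the endothelial sum was 487 to 521 and then 391 to 470 CPM. The adipocyte sum was 38.4 to 48.1 and then 91.9 to 167 CPM. Only 4 of the 7 adipocyte markers listed were found by name, and their calls in +1vs-14 went in both directions. The paper lists PNPLA2 among its upregulated genes of lipid metabolism, so this sum may not stand for adipocytes alone. The part of cell composition in the members' differences was not tested.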

How the data were processed

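Biopsies of mammary gland from 3 sows at 5 time points gave 15 mRNA libraries. The authors deposited raw read counts per gene for each library, which according to the file headers and the submitters' processing notes were made with FastQC 0.11.15, STAR 2.5.1b and featureCounts of Subread 1.5.0, with reverse-stranded counting on exons of the Ensembl annotation of Sscrofa10.2. The Methods name the RefSeq annotation instead. Reads on near-identical copies, such as the processed pseudogenes of ribosomal proteins, may be split or left out by such counting. None of the members shared exon bases with another gene on its strand (0 of 37).

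Counts were analysed in R 4.3.3. The filter of 1 CPM in 3 or more libraries left 13503 of 25322 genes. All 15 libraries entered 1 model of edgeR 4.0.16 with time as the factor (TMM, then glmQLFit and glmQLFTest), and p-values were adjusted over all tested genes by Benjamini-Hochberg. Calls required an adjusted p of at most 0.05 for any effect of time and for the comparison. The SE is the absolute log2 fold change divided by the square root of F. Alternatives used DESeq2 1.42.0 and limma 3.58.1. Scripts were tested on simulated counts in which 200 genes, fewer than were called in the data, were changed at 1 d postpartum. In +1vs-14 edgeR recovered 6 of 67 genes changed 1.5-fold, 39 of 67 changed 2-fold and 61 of 66 changed 4-fold.

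Gene symbols came from the study's own gene list (1772 IDs) and then from a reference table (11804 IDs); 27 of the 37 members had the same symbol in both and 10 were absent from the table. Columns of that list with the authors' fold changes and p-values were not used. Members and lists were chosen with earlier results of these data known. All members were described by class, with library values for up to 4 called members per class and direction with the largest change in +1vs-14 and for the eIF4A and eIF4E paralogues. In each other list, up to 3 called genes per direction were named. Genes named outside this rule are said to be chosen after their values were seen, or are the neighbours of a call that an alternative changed.

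Libraries of a time point are separate animals, and the sow was found from the study's list of reads on exons, in which each library's total count occurs exactly once at its time point. Deviations from the time point means correlated within sow by 0.396 on average (30 pairs, lowest 0.103). The average between sows, -0.198 (60 pairs), adds nothing to this, since the deviations at a time point cancel out. The main fit held time only, so its SE, adjusted p and calls take the libraries as independent, whereas the paper fitted the animal as a random effect. Libraries were treated as paired only in the fits with the sow, and the blocked value is given where it changed a call. Libraries of a time point were distinct (any pair had 16072 or more genes with unequal counts). Precision is set by 3 libraries per time point and by depth, which gave a member between 4 and 76450 counts per library.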

Additional observations from a re-analysis of the deposited data

How the results depend on the processing

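Each of the counts of called members, class medians and member fold changes was recomputed under 12 other fits or call rules and on leaving out each of the 15 libraries. Of 216 counts of called members under other settings, 193 stayed within 1.5 times the reported count, where 0 against 0 was taken as unchanged. Most of the 216 belong to comparisons before parturition, in which the reported count was 0, so this share says little about the calls after parturition. In +1vs-14, RNA integrity as a covariate gave 0 cytosolic members, 0 mitochondrial members and 0 factors, and the fit on the 6 libraries of the comparison alone gave 3 cytosolic and 0 mitochondrial members, with 2 cytosolic members and 1 factor in +1vs-2. Fewer libraries enter the latter fit, and for the others the cause was not tested. Total counts without TMM gave 9 mitochondrial members and 10 factors in +1vs-14, 2 and 4 in +1vs-2, and 3 factors in -2vs-14, when the median of all tested genes was -0.64, -0.22 and -0.42. DESeq2 gave 1 cytosolic member in -2vs-14 and 2 and 1 mitochondrial members in +1vs-14 and +1vs-2, and so did limma-voom when sow was fitted as a random effect. Using the adjusted p of the comparison alone also gave 2 and 1 mitochondrial members, and no filter on low counts gave 0 in +1vs-14. With the sow as a replicate block, 3 mitochondrial members were called in +1vs-14 and 1 in +1vs-2. Among the members in these 2 comparisons the block changed the calls of RPL14, MRPL24 and MRPS18B, as given above, and no other.

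On leaving out 1 library, the called cytosolic members numbered 6 to 9 in +1vs-14 and 9 to 10 in +1vs-2, the mitochondrial members 0 to 2 and 0 to 1, and the factors 2 to 5 and 2 to 4, the highest being without the 1 d postpartum library numbered 37. Before parturition each class had 0 throughout. RPS10 lost its call without any of the libraries numbered 1, 7 and 43, and RPL30 without the library numbered 1.

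Without TMM the direction in +1vs-14 turned for MRPL13 (-0.24), MRPL2 (-0.65), MRPL24 (-0.27), MRPL3 (-0.65), MRPL43 (-0.47), MRPS10 (-0.50), MRPS28 (-0.56), MRPS31 (-0.65), RPS6KB1 (-0.61) and EIF4E2 (-0.59). With RNA integrity as a covariate it turned for MRPL2 (-0.18), MRPS31 (-0.095), RPL7L1 (0.048) and EIF4ENIF1 (0.050). MRPL3 also turned with the 10 highest genes of any library removed (-0.0072), on the 6 libraries alone (-0.0052) and with no filter (-0.018). On leaving out 1 library, the sign turned for members near 0, with ranges of -0.18 to 0.014 for RPS21, -0.39 to 0.0084 for MRPL15, -0.12 to 0.12 for MRPL2, -0.043 to 0.046 for MRPL3, -0.27 to 0.13 for MRPL40, -0.098 to 0.25 for MRPS28, -0.077 to 0.10 for MRPS31, -0.32 to 0.023 for RPL7L1, -0.023 to 0.12 for RPS6KB1 and -0.22 to 0.067 for EIF2S1.

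With 3 sows per time point, an uncalled member is not shown to be equal between time points. Depth limits RPS6KL1 most, with 4 counts in its lowest library.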
